A study of Mus musculus with 6 samples.

Results

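The 10 genes described here, *Fos*, *Fosb*, *Junb*, *Egr1*, *Egr2*, *Egr4*, *Arc*, *Npas4*, *Nr4a1* and *Bdnf*, are transcribed in response to neuronal activity. They were chosen by symbol, through the Ensembl gene names of GENCODE release M21, from the 18254 genes with deposited normalized counts. All 10 were found, and all 10 entered the tests, which covered the 16714 genes whose mean reached 5 normalized counts. The libraries came from the medial prefrontal cortex (mPFC) of male mice on a C57BL/6J background, aged 10 to 12 weeks. The *Shank3* transgenic (TG) mice carry an EGFP-*Shank3* transgene in addition to their own *Shank3*, and the controls were wild-type (WT) littermates without it. The promoter that drives the transgene is not given in the sources used here. Each genotype had 3 libraries, numbered 1 to 3 after the genotype (TG-1, WT-1 and so on). A library held RNA of 2 pooled mice, so a replicate is a pool. The p-values of the fit with the genotype alone are set against the spread between pools. Those of the fit with the library number are set against what genotype and number leave over.

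Immediate-early genes are transcribed within minutes of synaptic input, from transcription factors that are already in the cell, such as CREB, SRF and MEF2, and without new protein synthesis. Most of them encode transcription factors that act on a later set of genes, and others, such as *Arc* and *Bdnf*, encode proteins that work at synapses. In the cortex their mRNA levels follow recent experience, handling and arousal, and most of these mRNAs are short-lived. The mice were killed by decapitation under isoflurane and the tissue was kept overnight in the cold in an RNA preservative. The time of day and what the mice did beforehand are not given in the sources used here.

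*Shank3*, the overexpressed gene, stood at 17594 ± 1351 normalized counts in TG and 7779 ± 862 in WT (mean ± SD, n = 3), a log2 difference of 1.18 with a standard error (SE) of 0.10. The adjusted p was 0.0643 in limma with the genotype alone and 0.000437 with the replicate number as a second term. Each library's normalized counts summed to between 28363967 and 29447717. TG-2 stood apart in olfactory bulb markers, whose summed level was 1425 normalized counts there and 161 to 355 in the other 5 libraries. TG-3 had the highest sum of choroid plexus markers, 537 against 74.6 to 202. Oligodendrocyte markers summed to between 68173 and 90056 in TG and between 102859 and 105197 in WT. Differences in bulk tissue cannot separate fewer cells of a type from less RNA per cell.

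The start regions of 3 of the genes are shown because these genes, together with *Npas4*, had the smallest adjusted p for differences between libraries of different number, and because CREB, which acts on the cyclic AMP response element, is a well-known regulator of rapid transcription. Each sequence is the 250 bases before the transcription start in RefSeq, build GRCm38.p6, written 5′ to 3′ along the gene's own strand. *Fos* is at chr12:85473640-85473889 on the plus strand, *Junb* at chr8:84978749-84978998 on the minus strand, and *Nr4a1* at chr15:101266596-101266845 on the plus strand, inside the longer gene that GENCODE annotates. Capitals mark TGACG, the core of the element, or CGTCA, which is TGACG read on the opposite strand.
*Fos*: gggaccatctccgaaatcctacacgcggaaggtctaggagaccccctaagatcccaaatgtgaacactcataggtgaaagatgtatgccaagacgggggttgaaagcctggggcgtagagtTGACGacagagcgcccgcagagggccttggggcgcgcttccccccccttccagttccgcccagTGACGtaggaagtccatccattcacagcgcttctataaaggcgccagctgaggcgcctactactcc
*Junb*: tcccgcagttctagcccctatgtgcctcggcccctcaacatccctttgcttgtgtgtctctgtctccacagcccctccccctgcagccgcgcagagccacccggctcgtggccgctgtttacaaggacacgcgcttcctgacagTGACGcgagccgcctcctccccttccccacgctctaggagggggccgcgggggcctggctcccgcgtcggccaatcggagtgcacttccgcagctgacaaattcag
*Nr4a1*: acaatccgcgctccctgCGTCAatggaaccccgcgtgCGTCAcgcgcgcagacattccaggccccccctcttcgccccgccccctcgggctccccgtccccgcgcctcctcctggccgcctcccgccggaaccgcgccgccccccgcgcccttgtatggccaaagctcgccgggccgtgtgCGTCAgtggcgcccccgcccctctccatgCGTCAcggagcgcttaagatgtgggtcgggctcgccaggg

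*Nr4a1* holds TGACG 4 times, all on the opposite strand, at 233 to 229, 213 to 209, 69 to 65 and 40 to 36 bases before the start. *Fos* holds it at 129 to 125 and at 66 to 62 bases before the start, and *Junb* at 106 to 102. Of the 10 genes, 8 had an entry in the RefSeq table, 6 of them with 1 start, and *Arc* and *Egr1* were not searched. All 6 of those, *Fos*, *Fosb*, *Junb*, *Egr4*, *Npas4* and *Nr4a1*, held TGACG on one of the strands, as did 17.8% of all 32851 windows of 250 bases. The window of *Npas4* lies wholly within an exon that GENCODE annotates. Of the 5 windows of *Egr2*, 3 held it, which overlap each other for most of their length, and of the 7 windows of *Bdnf* 1 held it. The full palindrome TGACGTCA, which contains TGACG, was in none of the windows of the 8 genes and in 1.55% of all windows. The CArG box, the site of SRF, was found, among the windows of the 8 genes searched, in those of *Egr2*, in the same 3 overlapping windows and 1 other. It was in 1.47% of all windows. A match is a description of the letters and not a bound site, and these windows leave out more distant enhancers.

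The Fos and Jun proteins pair to form the AP-1 transcription factor. *Fos* (chr12:85473890-85477273 in GRCm38) had 2264, 1844 and 3886 normalized counts in TG-1, TG-2 and TG-3, and 2313, 2408 and 4013 in WT-1, WT-2 and WT-3. Both libraries numbered 3 lay far above the other 4, and the genotypes overlapped. The mean was 2665 ± 1078 in TG and 2911 ± 956 in WT (SD, n = 3), a log2 difference of -0.15 (SE 0.30, limma).

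*Junb* (chr8:84974484-84978718), whose protein is one of the Jun partners, had 3243, 2485 and 5384 normalized counts in TG and 3337, 2820 and 5163 in WT, in the order of the library numbers. The order was the same in both genotypes, with number 2 lowest and number 3 highest. *Fosb* (chr7:19302696-19310051), which encodes FosB and the stable short form ΔFosB, had 1053, 1117 and 1521 in TG and 965, 1204 and 1477 in WT. It was lowest in number 1 and highest in number 3 in both genotypes. The log2 difference between the genotypes was -0.05 (SE 0.31) for *Junb* and 0.02 (SE 0.19) for *Fosb*. *Junb* is overlapped by *Prdx2* on the other strand, and whether the quantification used the strand of the reads is not given in the sources used here.

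*Egr1*, *Egr2* and *Egr4* encode zinc finger transcription factors that bind the same GC-rich element. *Egr1* (chr18:34859823-34864984) had 15973, 15340 and 18417 normalized counts in TG and 15486, 17001 and 19984 in WT. It was highest in number 3 in both genotypes. *Egr2* (chr10:67535475-67542188) had 1063, 810 and 1306 in TG and 901, 1033 and 1251 in WT. *Egr4* (chr6:85511121-85513589) had 1946, 1750 and 2434 in TG and 1901, 1953 and 2115 in WT. TG-2 was the lowest of the 6 libraries for all 3 Egr genes, and number 3 was again the highest within each genotype. The 3 genotype differences were between -0.07 (*Egr1*, SE 0.11) and 0.03 (*Egr4*, SE 0.12) on the log2 scale.

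*Npas4* (chr19:4984355-4990316), a basic helix-loop-helix factor of neurons that is induced by calcium entry, varied the most of the 10 genes. Its normalized counts were 1559, 1122 and 2759 in TG and 1464, 1109 and 2205 in WT, so that the highest library was 2.49 times the lowest. The log2 difference between the genotypes was 0.14 (SE 0.35), with a mean of 1814 ± 847 in TG and 1593 ± 559 in WT. *Nr4a1* (chr15:101254269-101274795), an orphan nuclear receptor, had 5336, 4404 and 8413 in TG and 5180, 4577 and 8014 in WT. Both genes had number 2 lowest and number 3 highest in both genotypes, like *Junb*, and for *Nr4a1* the genotypes differed by 0.02 (SE 0.27).

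*Arc* (chr15:74669083-74672570), whose protein takes part in the removal of AMPA receptors from synapses, had 14314, 14376 and 18346 normalized counts in TG and 15075, 16390 and 19094 in WT. TG lay below WT at each of the 3 numbers, but TG-3 lay above WT-1 and WT-2, and the log2 difference was -0.11 (SE 0.13). *Bdnf* (chr2:109674700-109727007), the neurotrophin that signals through TrkB, had 1277, 1376 and 1525 in TG and 1205, 1355 and 1255 in WT. It was the 1 gene of the 10 in which WT-3 was not the highest WT library. It also varied least, with the highest library 1.27 times the lowest, and its genotype difference was 0.13 (SE 0.09), with a mean of 1393 ± 125 in TG and 1272 ± 76.2 in WT. *Bdnf* has 11 annotated transcripts from several promoters, which one gene-level value does not separate, and *Gm45346* overlaps it on the other strand.

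**Figure D1:**
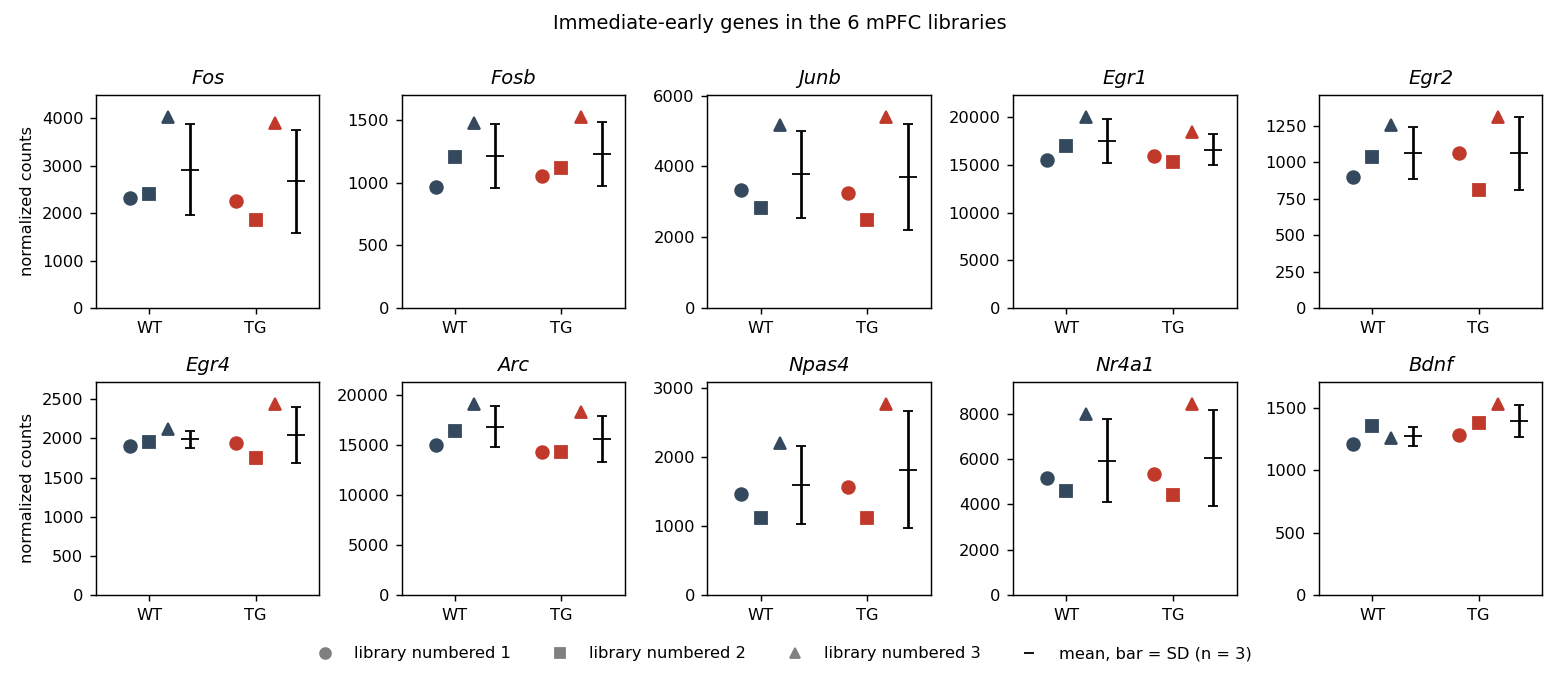
Normalized counts (y axis, from 0, own scale per gene) of the 10 genes in the WT and TG libraries, with the library number given by the symbol and the mean and SD (n = 3) beside each group. The triangles of number 3 are the highest within each genotype in every panel except *Bdnf* in WT, and the genotypes overlap in all 10 panels.

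Levels can be compared between genes only per length. Per kilobase of annotated exon, *Arc* had a mean of 5321 normalized counts over the 6 libraries (range 4682 to 6246) and *Egr1* 3799 (3421 to 4457), and neither range met that of the gene below it. *Nr4a1* followed with 1706, *Junb* with 1625, *Fos* with 1185 and *Egr4* with 939. The ranges of these neighbours overlapped, although *Nr4a1* was above *Junb* and *Junb* above *Fos* in all 6 libraries and *Fos* above *Egr4* in 5. *Npas4* had 412, *Egr2* 312, *Bdnf* 214 and *Fosb* 196 normalized counts per kilobase, each overlapping the next. A gap without overlap lay between *Egr4* and *Npas4*. The length used is that of all exons together, so the genes with long alternative exons, such as *Bdnf* and *Fosb*, come out low.

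The design asks whether the mPFC of *Shank3* TG mice differs from that of WT. None of the 10 genes differed between the genotypes at an adjusted p under 0.05 in limma, and the same was true of all tested genes (0%). *Shank3* itself did not pass in this limma fit (adjusted p 0.0643), so the 0% describes the reach of this test. The study used DESeq2 with an empirical null for the p-values and reported differing genes, *Shank3* among them. At an unadjusted p under 0.05 the count was 0 of the 10, against 2.01% of all tested genes. The unadjusted p-values were between 0.203 (*Bdnf*) and 0.946 (*Nr4a1*), and each adjusted p was 1.00. With 3 libraries against 3 the exact two-sided permutation test cannot go below 0.1, and it gave between 0.2 (*Bdnf*) and 1 (*Egr2*). The genotypes overlapped for all 10 genes, while they did not overlap for 6.02% of all tested genes. Of the 10 genes, 5 were higher and 5 lower in TG, and the median log2 difference was 0.0012, beside -0.0037 over all tested genes. Leaving out TG-3 moved this median to -0.20 and leaving out TG-2 to 0.13, and the removal of 1 library turned the sign of 8 of the 10 genes, all but *Arc* and *Bdnf*.

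These p-values do not show that the levels were equal. The 95% interval of the fold, TG over WT, was 0.554 to 1.46 for *Fos* and 0.631 to 1.93 for *Npas4*, the lowest and the highest bounds of the 10 genes. It was narrowest for *Bdnf*, 0.942 to 1.27. For 9 of the 10 genes the genotype difference was smaller than the spread (SD) between the pools of one genotype. The exception was *Bdnf*, with a difference of 0.13 and a spread of 0.11. *Bdnf* and *Npas4* were higher in TG than in WT at each of the 3 numbers, *Fos* and *Arc* were lower at each, and the other 6 were mixed. In 8 of the 10 genes TG-2 was below WT-2.

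With the replicate number as a second term in the model, the intervals became narrower and all 10 still included no difference. They lay between 0.795 and 1.24 on the fold scale over the 10 genes. The lowest unadjusted p-values in this limma fit were 0.0805 for *Fos* and *Npas4*, 0.0888 for *Arc* and 0.101 for *Bdnf*, and the adjusted p was 0.996 for every gene. None of the 10 passed an unadjusted p of 0.05 in this fit, against 4.98% of all tested genes. For *Nr4a1* the interval of the log2 difference was -0.10 to 0.14 with the number in the model and -0.61 to 0.65 without it.

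**Figure D2:**
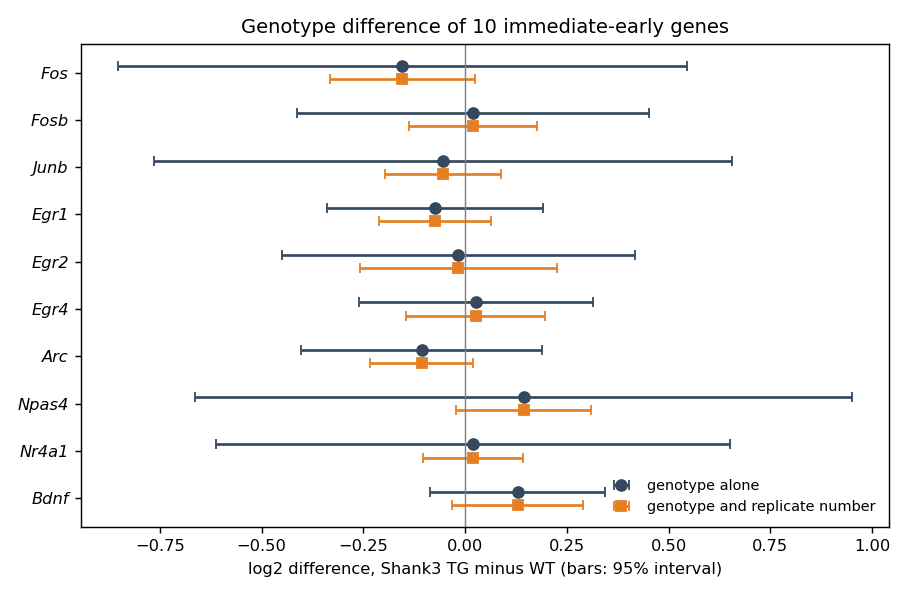
Log2 difference between TG and WT (x axis) for the 10 genes, with the 95% interval from limma for the genotype alone (circles) and for genotype and replicate number together (squares). Every interval includes 0, and the widest without the number are those of *Npas4*, *Junb*, *Fos* and *Nr4a1*.

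The replicate number took a larger share of the sum of squares of the log2 values than the genotype did in 10 of 10 genes, against 83.5% of all tested genes. The share of the number was 99.4% for *Nr4a1*, 98.2% for *Junb*, 95.9% for *Npas4*, 95.8% for *Fosb* and 92.8% for *Fos*, and the lowest was 40.6% for *Bdnf*, for which the genotype took 34.4%. The median was 89.5% for the 10 genes and 61.2% over all tested genes, while the genotype took a median of 1.502% and 6.67%. The number has 2 degrees of freedom and the genotype 1. Per degree of freedom the number took more in 9 of the 10 genes, against 74.3% of all tested genes, and the genotype took more in *Bdnf*. The median SD between pools of one genotype was 0.30 on the log2 scale for the 10 genes and 0.17 for all tested genes.

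A moderated F test for the replicate number, in the limma model with genotype and number, was past an adjusted p of 0.05 for 6 of the 10 genes, against 9.54% of all tested genes. These were *Nr4a1* (adjusted p 0.000416), *Junb* (0.000481), *Npas4* (0.000547), *Fos* (0.00175), *Fosb* (0.0114) and *Arc* (0.0296). *Egr1* (0.0685), *Egr2* (0.0859), *Egr4* (0.128) and *Bdnf* (0.395) were not. Unadjusted, 9 of the 10 were under 0.05, against 27.2% of all tested genes. Without the mean-variance trend in limma none of the 10 passed, with adjusted p-values of 0.124 to 0.552 and 6 genes under 0.05 unadjusted, and 0.191% of all tested genes passed. With 1 library left out at a time, 4 passed without TG-3, against 2.69% of all tested genes, and 4 without WT-3, against 1.47%. Without one of the other libraries 5 to 9 passed, against 7.09% to 13.5%. The 10 genes are not independent of each other.

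Number 3 was the high one. Both libraries numbered 3 lay above the other 4 for 9 of the 10 genes, against 20.3% of all tested genes, with *Bdnf* the exception. In both genotypes number 3 lay above the mean of numbers 1 and 2 for the same 9 genes, against 35.8% of all tested genes, and below it for none, against 36.4%. In TG, number 3 was 2.08 times the mean level of numbers 1 and 2 for *Npas4*, 1.90 times for *Fos* and *Junb*, 1.74 times for *Nr4a1* and 1.40 times for *Fosb*. In WT the same ratios were 1.73 for *Npas4*, 1.70 for *Fos*, 1.68 for *Junb*, 1.65 for *Nr4a1* and 1.37 for *Fosb*. For *Arc* and *Egr1*, the genes with the highest levels per kilobase, they were 1.28 in TG and 1.21 in WT and 1.18 in TG and 1.23 in WT. Ratios are of geometric means.

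Averaged over the 10 genes on the log2 scale, TG-3 stood at 0.39 and WT-3 at 0.31 relative to the mean of the 6 libraries, TG-1 at -0.11, WT-1 at -0.16, WT-2 at -0.14 and TG-2 at -0.29. TG-3 was the highest library for 7 genes and WT-3 for 3, and TG-2 the lowest for 6. Numbers 1 and 2 had no common order, since number 2 was below number 1 in both genotypes for *Junb*, *Npas4* and *Nr4a1*, above it in both for *Fosb*, *Arc* and *Bdnf*, and opposite in the other 4.

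**Figure D3:**
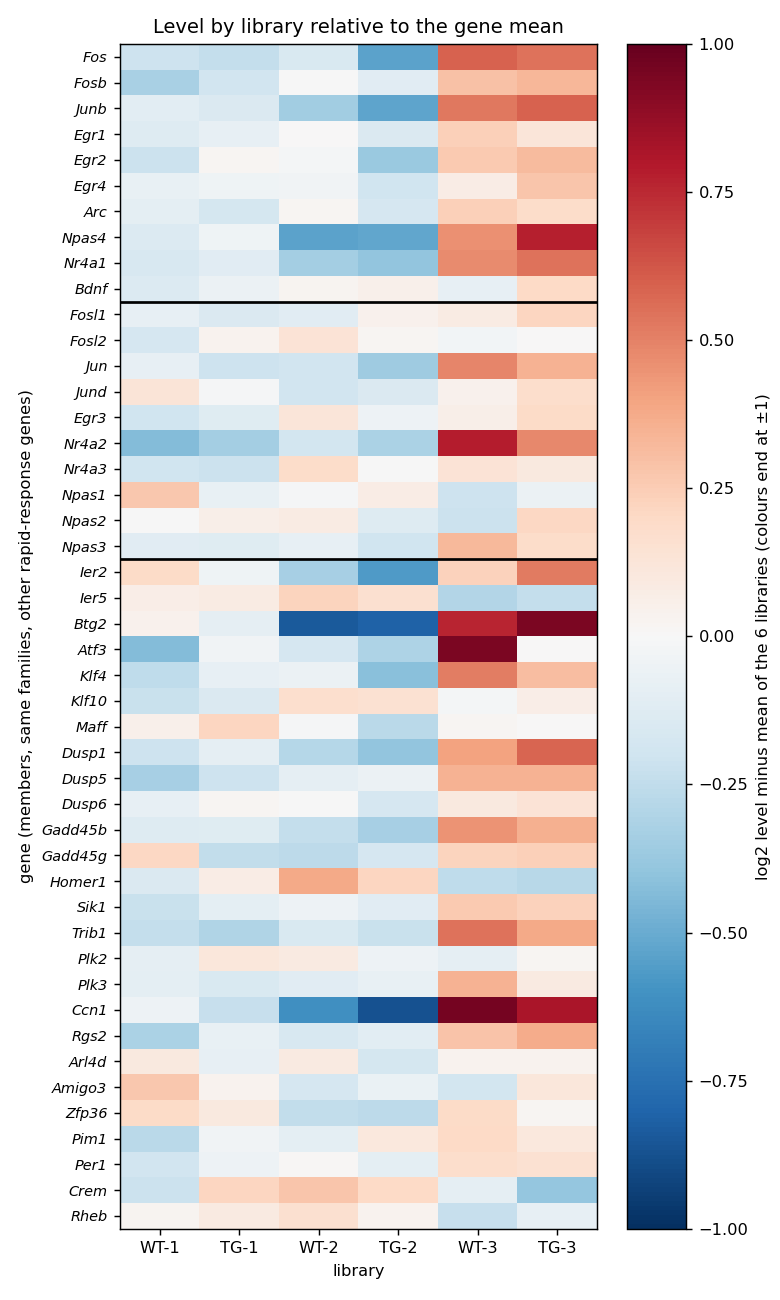
Log2 level of each gene (y axis) in each library (x axis, ordered by number) relative to its mean over the 6 libraries, for the 10 genes (top block), genes of the same families (middle) and other rapid-response genes (bottom), with red for higher and blue for lower and colours ending at 1 and -1. The columns of WT-3 and TG-3 are red for most of the 10 genes, at 0.31 and 0.39 on average, while *Homer1* and *Ier5* are blue there.

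Other members of the same families were described next, 10 genes in all. None differed between the genotypes at an unadjusted p under 0.05 in limma, 1 did with the number in the model (*Jun*, p 0.0403), and 3 passed the adjusted F test for the number. The shares of all tested genes were 2.01%, 4.98% and 9.54%. *Jun*, a partner of Fos, had 1127, 1017 and 1650 normalized counts in TG and 1231, 1137 and 1821 in WT. *Nr4a2*, a relative of *Nr4a1*, had 619, 631 and 1095 in TG and 582, 693 and 1356 in WT. Both were highest in number 3 in both genotypes, by log2 differences of 0.62 in each genotype for *Jun* (adjusted p 0.00198) and of 0.81 in TG and 1.09 in WT for *Nr4a2* (adjusted p 0.00176). *Nr4a3* also passed, with 1763, 2033 and 2186 normalized counts in TG and 1776, 2322 and 2242 in WT, lowest in number 1 in both genotypes (adjusted p 0.0464). The other 7, *Egr3* (adjusted p 0.129), *Jund* (0.0999), *Fosl1* (0.546), *Fosl2* (0.512), *Npas1* (0.509), *Npas2* (0.96) and *Npas3* (0.0791), did not pass. Over the 10 family genes the median difference between number 3 and the others was 0.18, beside 0.45 for the first 10 genes and -0.0024 over all tested genes.

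A list of 26 other rapid-response genes held 13 that passed the F test for the number, against 9.54% of all tested genes. Of the 13, 11 were higher and 2 lower in number 3 in both genotypes, with *Klf10* higher by 0.06 in TG and 0.0057 in WT on the log2 scale. *Ccn1*, a secreted matrix protein and target of SRF and YAP, had 404, 259 and 835 normalized counts in TG and 458, 310 and 921 in WT. *Btg2*, an antiproliferative gene, had 855, 520 and 1747 in TG and 938, 508 and 1546 in WT. Both followed the order of *Npas4*, *Junb* and *Nr4a1*, with number 2 lowest. Their adjusted p-values were 0.000137 and 0.000114. The phosphatase genes *Dusp1* (0.002) and *Dusp5* (0.0119), the kinase gene *Sik1* (0.0412), the pseudokinase gene *Trib1* (0.0014), the regulator of G protein signalling *Rgs2* (0.0103), and *Ier2*, *Klf4* and *Gadd45b* were also higher in number 3. The F test covers any difference among the 3 numbers, and for *Klf10*, with 1457, 1794 and 1687 normalized counts in TG and 1380, 1813 and 1588 in WT, it was number 2 that was the highest.

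The 2 that were lower in number 3 were *Homer1*, a postsynaptic scaffold gene with a short form induced by activity, and *Ier5*. *Homer1* had 7426, 8203 and 5832 normalized counts in TG and 6397, 9147 and 5920 in WT (adjusted p 0.0178), and its gene-level value mixes the long and the short form. *Ier5* was lower by 0.36 in TG and 0.44 in WT on the log2 scale (adjusted p 0.0103). *Per1*, the clock gene that also responds to activity (adjusted p 0.0887), and *Plk2*, a kinase gene of synaptic scaling (0.875), were the most abundant beside *Homer1* and did not pass. None of the 26 differed between the genotypes at an unadjusted p under 0.05 with the genotype alone in the model, and 1 did with the number in it (*Ccn1*, p 0.0389), against 2.01% and 4.98% of all tested genes.

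**Figure D4:**
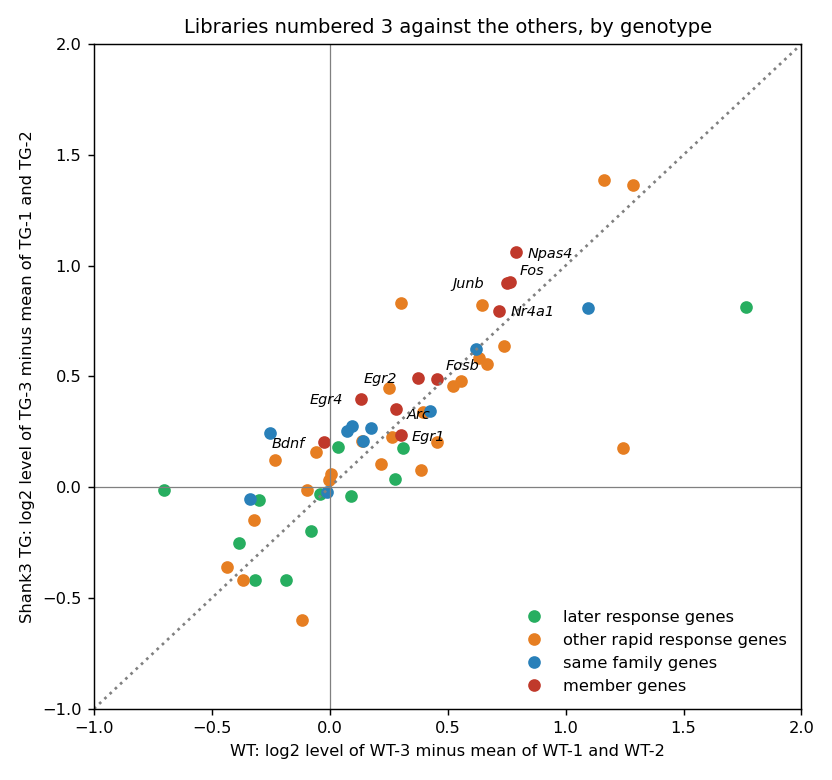
Log2 level of number 3 minus the mean of numbers 1 and 2, in WT (x axis) and TG (y axis), for the 10 genes (red, named), the same families (blue), other rapid-response genes (orange) and later-response genes (green), with the dotted line marking equal differences. Of the 10 genes, 9 lie above 0 on both axes, and the later-response genes spread around 0 except *Rasgrp1* at 1.76 in WT and 0.81 in TG.

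Of 12 genes that respond later, over hours, 3 passed the F test for the number, against 9.54% of all tested genes. In both genotypes 4 were higher in number 3 and 7 lower, beside 35.8% and 36.4% of all tested genes, and the median difference was -0.09. *Rasgrp1*, an activator of Ras, was the high one, with 12315, 13044 and 22260 normalized counts in TG and 10335, 11521 and 37083 in WT (adjusted p 0.00853). *Nptx2*, a secreted pentraxin that clusters AMPA receptors, had 1881, 2156 and 1690 in TG and 1856, 2076 and 1501 in WT. *Pcsk1*, a prohormone convertase, had 990, 1213 and 819 in TG and 868, 1355 and 870 in WT. *Nptx2* (adjusted p 0.0266) and *Pcsk1* (0.0168) were both lower in number 3, and the abundant *Vgf* (0.597) and *Nrn1* (0.442) did not pass. *Vgf*, a neuropeptide precursor, had 7580, 8049 and 7646 normalized counts in TG and 6962, 7290 and 6922 in WT. It was the 1 gene of the 12 without overlap between the genotypes, against 6.02% of all tested genes. Its unadjusted p for the genotype in limma was 0.0727, and 0.0253 with the number in the model, and it was the 1 gene of the 12 under 0.05 there (adjusted p 0.922), against 4.98% of all tested genes.

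The factors that act before these genes were read at the mRNA level only, and their activity is set by phosphorylation. Among 16 genes for CREB, SRF and MEF2 factors, their coactivators and partner factors, and kinases that act on them, 0 passed the adjusted F test in limma and 3 were under 0.05 unadjusted, against 27.2% of all tested genes. In both genotypes 12 of the 16 were higher in number 3 and 3 lower, beside 35.8% and 36.4% of all tested genes. Both libraries numbered 3 lay above the other 4 for 7 of the 16, against 20.3%. The genotypes did not overlap for 4 of the 16, against 6.02%. The abundant *Mef2c*, a factor of the MEF2 family, and *Camk4*, a calcium-dependent kinase gene, had adjusted p-values of 0.14 and 0.413. *Rps6ka5*, a kinase gene for CREB and histone H3, was the 1 gene of the 16 under an unadjusted p of 0.05 between the genotypes, named after its values had been seen, with a log2 difference of -0.24 (p 0.0416 in limma, adjusted p 1.00). With the number in the model, 1 of the 16, *Mapk3* (log2 difference 0.13, p 0.0401), was higher and 1, *Rps6ka5* (p 0.0286), lower at an unadjusted p under 0.05, against 4.98% of all tested genes. Of the 9 genes tested for dimer partners and for receptors of BDNF, 0 passed the F test for the number after adjustment in limma and 2 were under 0.05 unadjusted, again against 27.2%. In both genotypes 1 of the 9 was higher in number 3 and 6 were lower, beside the 35.8% and 36.4% of all tested genes. *Ntrk2*, which encodes the BDNF receptor TrkB, had 18187, 19409 and 18170 normalized counts in TG and 18202, 18737 and 18194 in WT. *Sort1* and *Arnt2*, the latter a partner of NPAS4, had adjusted p-values of 0.775 and 0.292.

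The mean profile of the 10 genes over the 6 libraries lay close to those of some genes outside these lists. Among 13445 other genes whose mean reached 50 normalized counts, those nearest to the mean profile were *Repin1*, *Selenos*, *Celf1*, *Gyg* and *Ppp2r2d*. Their mean absolute distance was between 0.018 and 0.037 on the log2 scale over the 6 libraries, and none was in a list used here. *Repin1* had 934, 838 and 1331 normalized counts in TG and 874, 919 and 1267 in WT. These 5 were picked for the smallest distance, so their nearness is not a result. The 10 genes themselves lay at distances of 0.083 (*Egr2*) to 0.21 (*Npas4*) from their mean. By distance they would rank between 216 (*Egr2*) and 4121 (*Npas4*) among the 13445 genes.

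Markers of several cell types also differed between the numbers, and their counts are to be read beside the 35.8% of tested genes that were higher and the 36.4% that were lower in number 3 in both genotypes. The 4 microglial markers summed to between 4719 and 4924 normalized counts in number 3 and between 5609 and 6677 in the other libraries, and all 4 were lower in number 3 in both genotypes, of which *Cx3cr1* and *Csf1r* passed the F test. The 4 blood markers summed to between 9558 and 10543 in number 3 and between 5928 and 8275 in the others, with 3 of 4 higher in both genotypes. All 4, the globin genes *Hba-a1*, *Hba-a2*, *Hbb-bs* and *Hbb-bt*, passed the F test. The near-identical copies, *Hba-a1* with *Hba-a2* and *Hbb-bs* with *Hbb-bt*, can share reads. The 5 markers of excitatory neurons, the main source of these mRNAs in cortex, summed to between 176516 and 183749 against 152957 to 169692, and 4 of the 5 were higher in both genotypes, of which *Neurod6* passed. The 4 endothelial markers summed to between 6991 and 7562 against 5648 and 6640, while their median log2 difference was -0.10. Of these, 1, *Pecam1*, was higher in both genotypes and 2 were lower, and *Pecam1* and *Slco1a4*, one of the lower ones, passed. The 4 choroid plexus markers were all higher in number 3 in both genotypes, with a median log2 difference of 0.83, and *Ttr* passed. Of the 5 markers listed for the deep layers, one of which, *Rorb*, is best known from layer IV, 4 were higher and 1 lower in both genotypes, and *Fezf2* and *Etv1* passed as higher and *Rorb* as lower, with log2 differences from -1.43 to 0.70 over the list. Of the 4 astrocyte markers, 2 were lower in both genotypes and *Aldh1l1* passed. Of the 6 markers of inhibitory neurons, 1 was higher and 4 were lower in both genotypes. Of the 5 leptomeningeal markers, 0 were higher and 4 were lower. None of these 2 lists passed the F test. No marker of these lists was listed at 0 in a library. The part of these differences in the levels of the 10 genes was not tested.

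Of 7 heat shock genes, 1 was higher and 4 were lower in number 3 in both genotypes, with a median log2 difference of -0.11 and a range of -0.30 to 0.41. *Hsp90aa1*, a chaperone gene, was the higher one and the 1 that passed the F test (adjusted p 0.0332). The median difference over all tested genes was between -0.045 in the lowest and 0.017 in the highest quintile of GC content, and between -0.026 and 0.049 over the quintiles of transcript length. Of the 10 genes, 7 fell in the highest quintile of GC content. What the library numbers stand for, such as a day, a cage or a dissection, is not given in the sources used here, and these cannot be told apart.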

How the data were processed

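The mPFC of 3 *Shank3* TG and 3 WT pools of 2 mice was sequenced. The authors estimated transcript abundance with Salmon 0.9.1 on GRCm38 with GC bias correction, summed it to genes with tximport and normalized it by size factors in DESeq2 1.19.11 under R 3.6.0. The deposited values are this signal, normalized counts that are not whole numbers, so the reads were not recovered and no counting interval was given.

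Names and positions came from GENCODE M21, which held 18231 of the 18254 genes. Calculations used R 4.3.3 with limma 3.58.1, Python 3.11.15, numpy 2.4.6, pandas 2.3.3 and matplotlib 3.10.9. A pseudocount of 1 was added before log2, and fold changes are on that scale. Genes with a mean of at least 5 were tested with eBayes with a trend, two-sided, adjusted by Benjamini-Hochberg over all 16714 genes, with a threshold of 0.05. The fits were tested on simulated data.

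Replicate numbers were taken to pair the libraries, which the study describes as pairs of RNA samples. Deviations from the genotype means correlated across genes at 0.30, 0.33 and 0.62 between same-numbered libraries, for numbers 1, 2 and 3. They correlated at 0.27 (TG-1 with WT-2) and 0.23 (TG-2 with WT-1), and at -0.44 to -0.39 between number 3 and the others. These values set number 3 apart and hardly tell number 1 from number 2. They are also the values that the tests used, and the labels do not say which libraries belong together. The 10 genes and the lists were chosen with earlier results of these data known. Named are the 10 genes, their family members, the 5 nearest profiles, at most the 3 most abundant tested genes of a list of response genes, and those of any list past the threshold. Other named genes were chosen after their values were seen, and 1 upstream gene is not reported here.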

Additional observations from a re-analysis of the deposited data

How the results depend on the processing

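None of the 10 genes differed between the genotypes at an adjusted p under 0.05 in limma under any of 17 alternatives, and the lowest adjusted p was 0.772. The alternatives were other pseudocounts, filters and scalings, limma without the trend or with the robust option, a replicate block, z-scores scaled to an empirical null, each library left out, and, chosen after seeing the data, leaving out both libraries numbered 3. Over all tested genes the count was 0, and it was 1 with the robust option, 1 with the replicate block, 26 with the empirical null, 1 without both libraries numbered 3, and 0 to 1 with single libraries left out (1 without WT-3). The median log2 difference of the 10 genes was between -0.20 and 0.13 with single libraries left out, 0.13 being the value without TG-2. Leaving out both libraries numbered 3 turned *Egr4* to -0.062 and *Nr4a1* to -0.0063. With single libraries left out, the genotype difference ranged from -0.46 to 0.10 for *Fos*, -0.14 to 0.17 for *Fosb*, -0.36 to 0.20 for *Junb*, -0.16 to 0.026 for *Egr1*, -0.18 to 0.16 for *Egr2*, -0.11 to 0.13 for *Egr4*, -0.21 to 0.44 for *Npas4*, -0.25 to 0.26 for *Nr4a1*, -0.23 to -0.014 for *Arc* and 0.062 (without TG-3) to 0.19 for *Bdnf*. The F test for the number passed 6 of the 10 genes, 0 without the trend, and 4 to 9 with single libraries left out. The difference of number 3 was above 0 for 9 of the 10 under each of the 14 alternatives run for it, which did not include the block, the empirical null and the removal of both libraries numbered 3, and for *Bdnf* it ranged from -0.026 without TG-3 to 0.20. The cause of these changes was not tested. Pools of 2 mice and 3 libraries a genotype limit what could be detected, and no counting error is known.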
